A study of Macaca mulatta with 24 samples.

Results

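The genes described are 7 of the 35432 genes in a sequencing table of rhesus macaque airway cultures exposed to wood smoke, chosen by symbol as genes of retinoic acid metabolism and response. They are CYP26A1 (ENSMMUG00000010881) and CYP26B1 (ENSMMUG00000012141), enzymes that break retinoic acid down, RARB (ENSMMUG00000007367), a retinoic acid receptor, NRIP1 (ENSMMUG00000058750), a nuclear receptor corepressor, STRA6 (ENSMMUG00000001837), a membrane transporter of retinol, CRABP2 (ENSMMUG00000002295), an intracellular retinoic acid carrier, and DHRS3 (ENSMMUG00000005681), which turns retinal back to retinol. Each symbol matched 1 row, and all 7 genes passed the filter on low values (at least 10 in at least 4 libraries), CYP26B1 with 19 of 24 libraries at or above 10 and each of the others with all 24. The choice was made with results of these smoke and air comparisons in view, so their differences are given as a description, with standard errors and no p-value.

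Retinoic acid is the active form of vitamin A. Retinol is carried into the cell, oxidised to retinal and then to retinoic acid, which binds receptors of the RAR family paired with RXR on the DNA of target genes. Among the best known direct targets are genes that limit the signal, the CYP26 hydroxylases and DHRS3, together with RARB, STRA6, CRABP2 and NRIP1. In airway epithelium retinoic acid is known for holding cells to a mucociliary fate, and cultures without it turn towards a squamous, keratinising one.

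The cultures were primary tracheobronchial epithelial cells of 4 adult female macaques (S1 to S4), grown on inserts and differentiated with their upper surface open to the air. Retinoic acid had been added to the differentiation medium of every group, at a concentration not given in the sources used here. Cultures of each animal were exposed to filtered air or to diluted wood smoke in sessions of 6 hours. They were taken after 1 session, after 5 daily sessions, or after 5 daily sessions and a recovery of 7 days, which gives 6 groups with 1 library per animal. From S1 to S4 the animals were aged 5463, 2930, 2238 and 1128 days, so that age and animal cannot be told apart, and time of exposure cannot be told apart from time in culture. In bulk RNA of this kind, fewer cells of a type and less RNA per cell cannot be told apart either.

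The values were taken as normalized read counts per gene and library, and all differences are between libraries. No scaling by gene length is known. Marker sums and the choice of the most abundant list genes rest on unscaled counts, in which longer genes can weigh more. Library totals were 11.8 to 15.2 M, and the approximate depth was 9.43 to 17.4 M reads. Among them the S1 air library of 5 days differed from the rest, with a median correlation to them of 0.860 against 0.931 to 0.956 for the other 23, and its effect is given beside the results of the 7 genes that it alters. Epithelial markers were present in every library, with the summed level of EPCAM, CDH1 and KRT18 between 6314 and 9483. Of the lists for other lineages, the 6 fibroblast genes summed to 4.95 to 116, with LUM at 0 throughout. The 4 endothelial genes summed to 1484 to 20691, most of it KDR (1310 to 20429), with VWF at 50.9 to 121, PECAM1 at 11.8 to 179.8 and CDH5 at 0. The 5 leukocyte genes summed to 196 to 934, most of it CD68 (194 to 932), with PTPRC at no more than 1.69.

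At the end of the recovery week 4 of the genes (CYP26A1, CYP26B1, RARB and NRIP1) stood lower in smoke than in air in every animal, with air means 2.39 to 7.66 times the smoke means and no overlap between the groups. The air cultures stood well above their 1-day level in these genes by then. The smoke cultures were less far above it in both hydroxylases and had means below it in RARB and NRIP1. After 1 day smoke and air overlapped in all 7 genes, although smoke was above air in 4 of 4 animals for CYP26A1, RARB, NRIP1 and STRA6, by 0.03 to 0.55 on the log2 scale. STRA6, CRABP2 and DHRS3 overlapped between smoke and air at every time. The share of all genes without overlap is not given here. The genes were chosen with these comparisons in view, so overlap or its absence is only a description.

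CYP26A1, a retinoic acid hydroxylase and one of the most inducible targets of the hormone, was measured after 1 day at 535, 1007, 597 and 350.1 normalized counts in the air cultures of S1 to S4, and at 617, 1306, 678 and 489.6 in smoke. After 5 days the air cultures stood at 2227, 1994, 2091 and 1255 and the smoke cultures at 1044, 985, 827 and 745. At the end of recovery air gave 5890.1, 12072, 8064 and 7887, and smoke gave 2053, 4055, 2108 and 1971. Smoke was thus above air in all 4 animals after 1 day, and below it in all 4 at both later times, where the highest smoke value lay under the lowest air value.

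In order of mean level, CYP26A1 ran from air at 1 day (622 ± 277, SD, n = 4 here and below) through smoke at 1 day (772 ± 364) and smoke at 5 days (900.2 ± 139) to air at 5 days (1892 ± 435), smoke after recovery (2547 ± 1007) and air after recovery (8478 ± 2591). The lowest 3 overlapped, as did air at 5 days and smoke after recovery. The smoke minus air difference of CYP26A1 was 0.31 ± 0.32 (SE, on the log2(value + 1) scale used for all differences) after 1 day, −1.05 ± 0.32 after 5 days (−0.96 ± 0.35 without the S1 air library of that time) and −1.76 ± 0.32 after recovery. Within the animals the recovery difference was −1.52, −1.57, −1.94 and −2.0 from S1 to S4, so every pair of cultures showed it. The mean in air was 2.10 times that in smoke at 5 days and 3.33 times after recovery.

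CYP26B1, the other hydroxylase of the pair, was low after 1 day, with 10.3, 13.9, 10.2 and 13.8 in air and 6.18, 6.42, 6.77 and 17.9 in smoke. After 5 days air gave 1.61, 50.4, 157 and 109.8, and smoke gave 47.2, 30.9, 41.2 and 71.6. At the end of recovery the values were 194, 249.8, 313 and 291 in air against 44.7, 19.7, 63.2 and 9.19 in smoke. The low value at 5 days is the separate library of S1, in which the gene was almost undetected, while in the other 3 animals air lay above smoke.

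Air after recovery (262 ± 52.2) was the only group of CYP26B1 that overlapped with none of the others. Below it stood air at 5 days (79.7 ± 67.9), smoke at 5 days (47.7 ± 17.3), smoke after recovery (34.2 ± 24.4), air at 1 day (12.0 ± 2.08) and smoke at 1 day (9.31 ± 5.71), each overlapping with its neighbour. The recovery difference was −3.21 ± 0.83, with −2.09, −3.60, −2.29 and −4.84 in S1 to S4, and the mean in air was 7.66 times that in smoke. The ratio of air to smoke within an animal ranged from 4.34 in S1 to 31.7 in S4, a wider spread than for any other of the genes, and the S4 smoke value that sets it is under 10. At 5 days the difference was 0.25 ± 0.83, and −1.05 ± 0.50 without the S1 air library of 5 days.

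**Figure D1:**
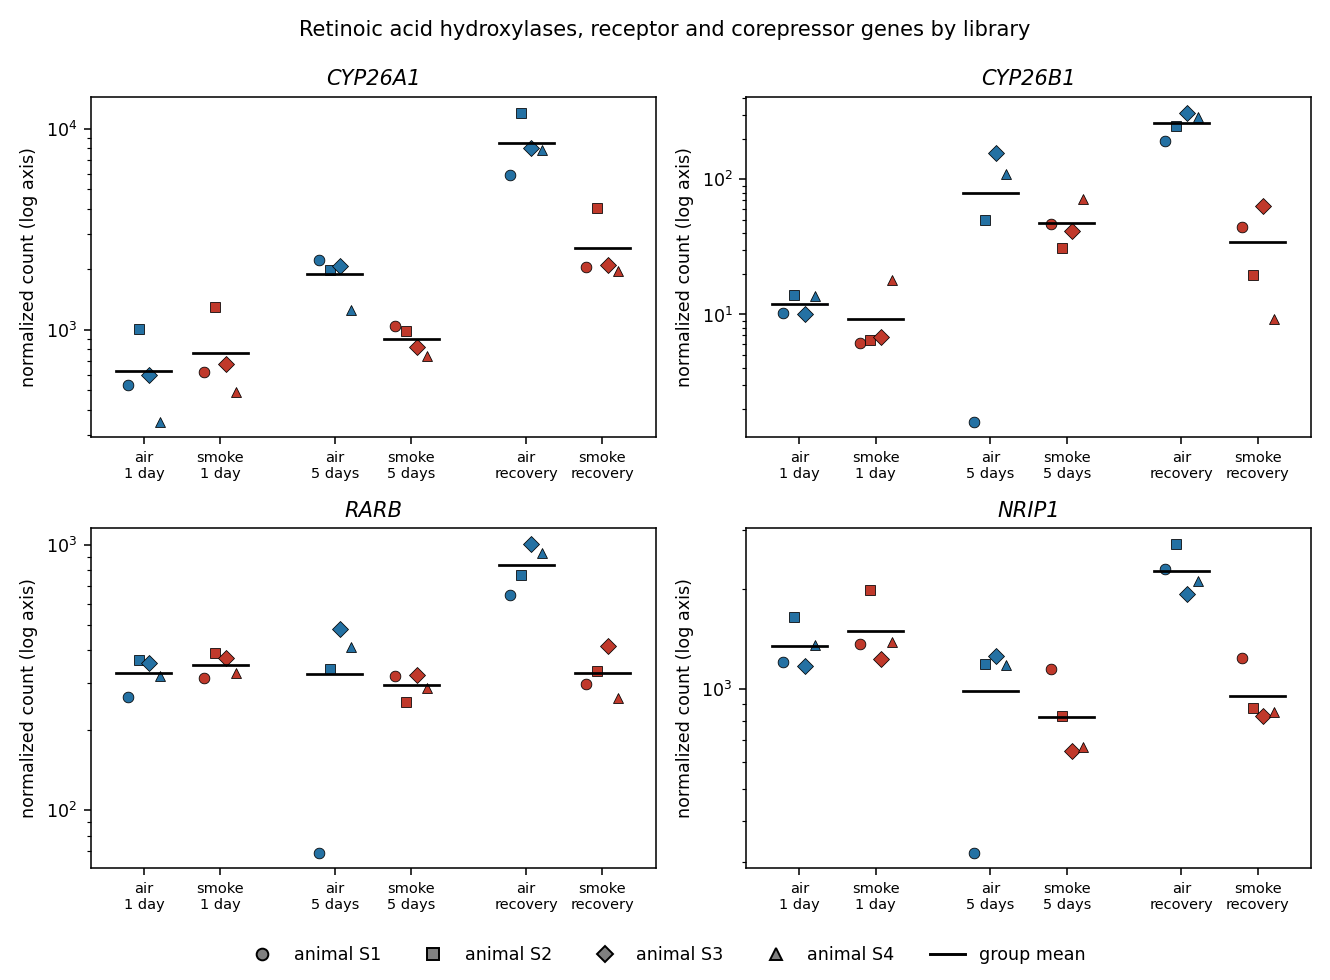
Normalized counts of CYP26A1, CYP26B1, RARB and NRIP1 (log axes) in each library, with 1 symbol per animal, blue for air, red for smoke and a bar for the group mean. After recovery every air value lies above every smoke value in the 4 panels, and the S1 circle in 5-day air is the lowest of its panel for CYP26B1, RARB and NRIP1.

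RARB encodes the retinoic acid receptor whose own gene is a target of the hormone. Its 1-day values were 267, 369, 357 and 319.8 in air and 314, 391, 373 and 329.7 in smoke. The 5-day values were 69.1, 339, 483 and 411 in air and 319, 256, 322 and 288 in smoke. After recovery air stood at 645, 768, 1007 and 931 and smoke at 299, 333, 415 and 265. The recovery air cultures were the only group clear of all others, and the recovery smoke cultures lay in the range of the earlier groups.

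The group means of RARB show the same split. Smoke at 5 days (296 ± 31.0), air at 5 days (326 ± 181), smoke after recovery (328 ± 64.1), air at 1 day (328 ± 45.6) and smoke at 1 day (352 ± 36.2) all overlapped, and air after recovery was at 838 ± 163. The recovery difference was −1.35 ± 0.37 (−1.11, −1.20, −1.28 and −1.81 in S1 to S4), with the air mean 2.55 times the smoke mean. After 5 days it was 0.17 ± 0.37, or −0.46 ± 0.17 without the S1 air library of 5 days, whose value of 69.1 was the lowest RARB level of all 24 libraries. The other 3 animals each had less RARB in smoke than in air at that time (−0.41, −0.58 and −0.51).

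NRIP1, which binds hormone-occupied nuclear receptors including RAR and dampens their output, was at 1203, 1637, 1166 and 1349 in air and 1362, 1983, 1228 and 1381 in smoke after 1 day. At 5 days the values were 320.3, 1185, 1249.6 and 1176 in air against 1142, 824, 651 and 668 in smoke. After recovery they were 2295, 2729, 1921 and 2106 in air against 1238, 874, 829.5 and 849 in smoke. Here too the S1 library of 5-day air held the lowest value of all 24, and smoke lay under air in the other 3 animals at 5 days.

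The lowest means of NRIP1 were those of smoke at 5 days (821 ± 228) and smoke after recovery (948 ± 194), followed by air at 5 days (983 ± 443), air at 1 day (1339 ± 214), smoke at 1 day (1489 ± 337) and air after recovery (2263 ± 346), and each group overlapped with the next. The recovery difference was −1.26 ± 0.31, with −0.89, −1.64, −1.21 and −1.31 in S1 to S4 and an air mean 2.39 times the smoke mean. At 5 days it was −0.11 ± 0.31, and −0.59 ± 0.19 without the S1 air library of 5 days. In smoke NRIP1 stood lower at 5 days than at 1 day in all 4 animals (mean ratio 0.552) and was at 0.637 times its 1-day mean after recovery.

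STRA6, the receptor that takes up retinol from its plasma carrier, gave 95.7, 195, 242 and 244 in air and 113, 285, 256 and 274 in smoke after 1 day. At 5 days air held 130.0, 230.4, 172 and 210.5 and smoke 125, 224, 161 and 246. After recovery the values were 216, 360.2, 325 and 357 in air and 243, 217, 225 and 247 in smoke. The recovery week separated 3 of the animals and not S1, whose air culture was the lowest of its group.

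The mean of STRA6 was between 186 ± 44.3 (air, 5 days) and 233 ± 14.4 (smoke, recovery) in 5 of the groups and 315 ± 67.7 in air after recovery, and all neighbours in that order overlapped. The recovery difference was −0.41 ± 0.31, made up of 0.17 in S1 and −0.73, −0.53 and −0.53 in S2 to S4. After 1 day it was 0.26 ± 0.31 and after 5 days 0.01 ± 0.31, or −0.15 ± 0.33 without the S1 air library of 5 days. S1 had the lowest STRA6 level in 5 of the 6 groups.

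CRABP2, the carrier that hands retinoic acid to its receptor, differed more between animals than between exposures. In air after recovery it stood at 285, 53.4, 57.7 and 109.7 and in smoke at 223, 23.6, 20.7 and 70.0, lower in smoke in each animal (−0.35, −1.14, −1.43 and −0.64). The difference of the group means was −0.89 with an SE of 0.80 when animals are left in the spread, and of 0.34 with animal as a block. S1 had the highest CRABP2 value in all 6 groups, from 125 in smoke at 5 days to 489.5 in its separate 5-day air library, while the other animals lay between 20.7 and 109.7.

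After 1 day CRABP2 was at 178, 62.1, 45.3 and 59.6 in air and 158, 73.7, 49.1 and 58.1 in smoke. At 5 days it was at 489.5, 43.1, 35.1 and 63.8 in air and 125, 58.0, 23.9 and 62.9 in smoke. The group means, from 67.4 ± 42.0 (smoke, 5 days) to 158 ± 221 (air, 5 days), overlapped throughout. The 5-day difference of −0.52 ± 0.80 became 0.32 ± 0.74 without the S1 air library of 5 days, and −0.14 ± 0.30 when animals were also blocked, so its sign is not settled.

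DHRS3, the retinal reductase that returns retinal to the storage pool, was at 2322, 2692, 3724 and 3115 in air and 2043, 2892, 3227 and 2870.0 in smoke after 1 day. At 5 days air stood at 9557, 4181, 6149 and 4721 and smoke at 3664, 3876, 4811 and 4473. After recovery the values were 3753, 4165, 4968 and 4465 in air against 3774, 3349, 4955 and 4021 in smoke. The largest gap, that at 5 days, is again mainly the separate library of S1, in which DHRS3 was at its highest.

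The smoke minus air difference of DHRS3 was −0.10 ± 0.21 after 1 day, −0.48 ± 0.21 after 5 days (−0.24 ± 0.18 without that library) and −0.12 ± 0.21 after recovery. In order of mean the groups were smoke at 1 day (2758 ± 504), air at 1 day (2963 ± 602), smoke after recovery (4025 ± 679), smoke at 5 days (4206 ± 529), air after recovery (4338 ± 512) and air at 5 days (6152 ± 2417), with overlap between all neighbours. DHRS3 therefore stood higher at the later times than at 1 day in both exposures, by 1.46 times (means after recovery) in air and in smoke alike.

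**Figure D2:**
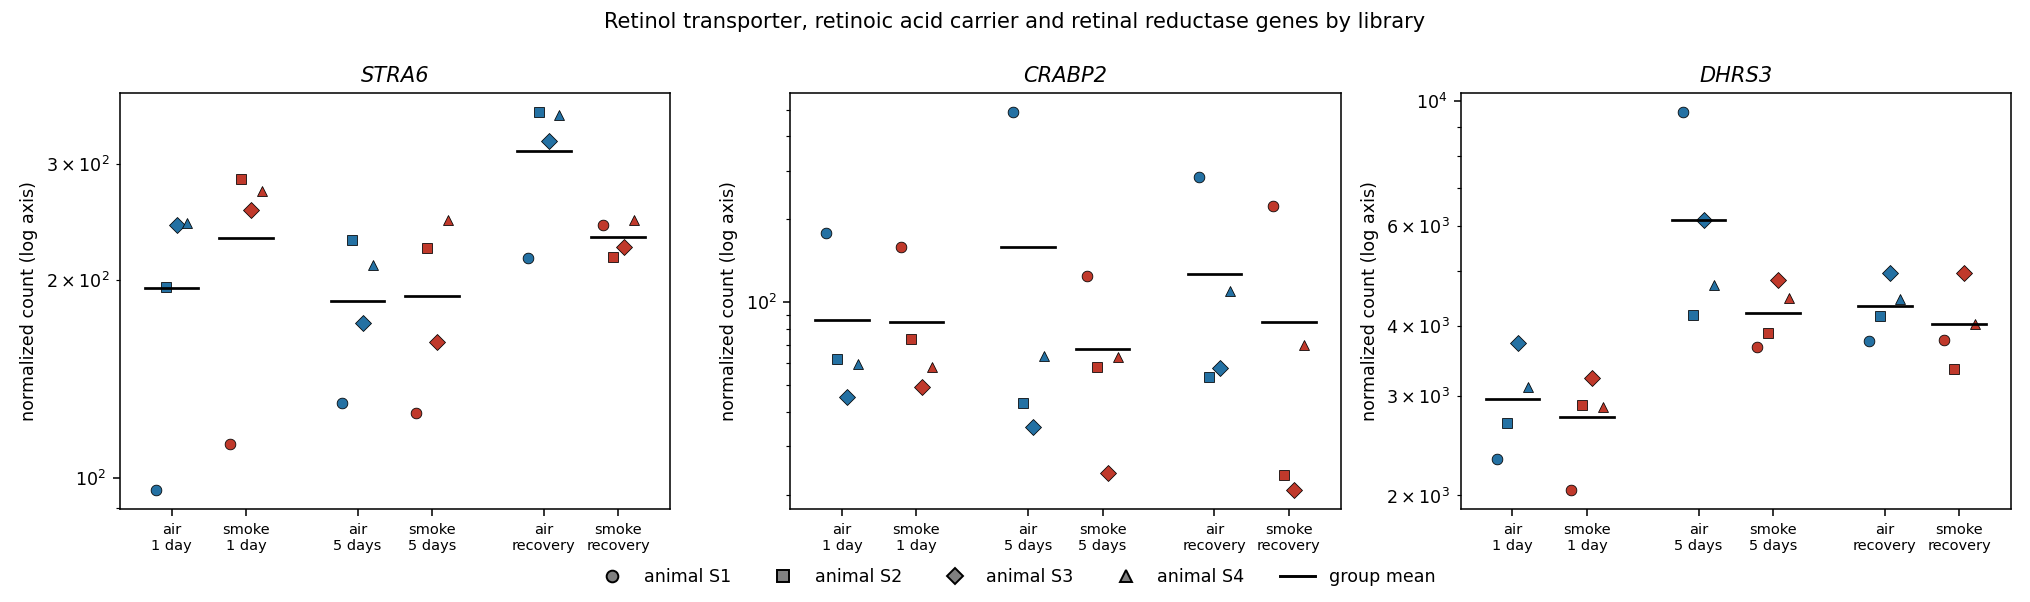
Normalized counts of STRA6, CRABP2 and DHRS3 (log axes) in each library, with 1 symbol per animal, blue for air, red for smoke and a bar for the group mean. Smoke and air overlap at every time in the 3 panels, and S1 (circles) is the highest animal for CRABP2 in all 6 groups.

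The air cultures alone show how these genes differed over time without smoke. From 1 day to 5 days in air the difference was 1.67 ± 0.32 for CYP26A1 and 1.00 ± 0.21 for DHRS3, higher in 4 of 4 animals for both. Without the S1 air library of 5 days they were 1.58 ± 0.35 and 0.76 ± 0.18, and CYP26B1 went from 1.60 ± 0.83 to 2.90 ± 0.50. From 5 days to the end of recovery in air the differences were 2.15 ± 0.32 (CYP26A1), 2.72 ± 0.83 (CYP26B1), 1.65 ± 0.37 (RARB), 1.37 ± 0.31 (NRIP1) and 0.76 ± 0.31 (STRA6), each higher in 4 of 4 animals. Leaving out the same S1 library lowered those of CYP26B1, RARB, NRIP1 and STRA6 to 1.42 ± 0.50, 1.02 ± 0.17, 0.90 ± 0.19 and 0.60 ± 0.33.

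The smoke cultures covered less of that distance. The recovery mean of CYP26A1 was 13.6 times its 1-day mean in air and 3.30 times in smoke, and that of CYP26B1 was 21.7 times in air and 3.67 times in smoke. For CYP26B1 the smoke cultures were 5.12 times higher at 5 days than at 1 day and then stood at 0.716 times the 5-day mean after recovery, lower in 3 of 4 animals, with the largest drop in S4. RARB was 2.55 times its 1-day mean in air after recovery and 0.931 times in smoke. The smoke cultures of all 4 animals held more CYP26A1 after recovery than at 5 days (2.83 times the 5-day mean).

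The difference between smoke effects at successive times was computed for each gene. From 1 day to 5 days the effect on CYP26A1 moved by −1.36 ± 0.45, in the same direction in 4 of 4 animals (−1.30, −1.39, −1.52 and −1.24). From 5 days to recovery it moved by −0.71 ± 0.45 for CYP26A1, −3.46 ± 1.18 for CYP26B1, −1.52 ± 0.53 for RARB and −1.15 ± 0.44 for NRIP1, downward in 4 of 4 animals for each. With animals blocked and that S1 library left out these became −0.85 ± 0.26, −2.17 ± 0.64, −0.94 ± 0.17 and −0.63 ± 0.20. In the plot of differences within animals S1 lies, at 5 days, far above the other 3 for CYP26B1, RARB and NRIP1 and below them for CRABP2 and DHRS3, and its 5-day pair holds that library.

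**Figure D3:**
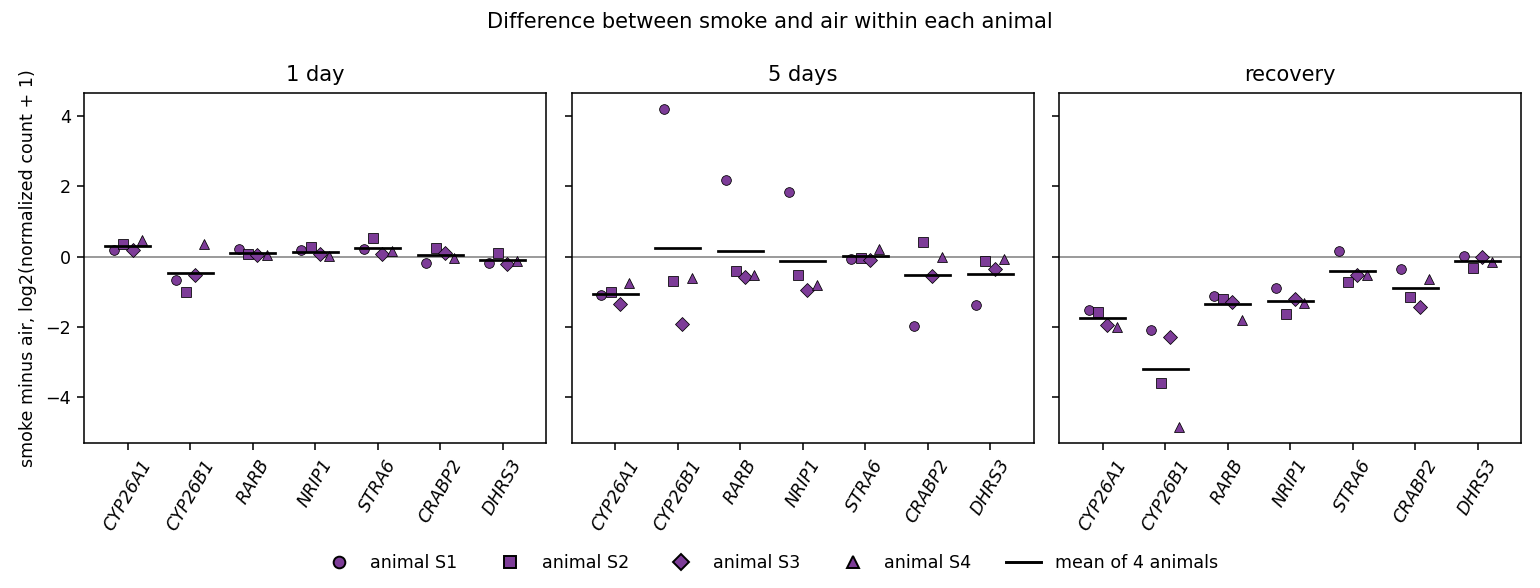
Smoke minus air within each animal, on the log2(normalized count + 1) scale, for the 7 genes at 1 day, 5 days and after recovery, with 1 symbol per animal and a bar for the mean of the 4. After recovery all 4 animals lie below 0 for CYP26A1, CYP26B1, RARB, NRIP1 and CRABP2, and at 5 days S1 (circles) lies apart from the others for 5 of the genes.

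For all genes together, limma was run on the 14062 that passed the filter, and a gene was called at a Benjamini-Hochberg adjusted p under 0.05. Of the 7 genes, 0 were called for smoke against air after 1 day and 0 after 5 days, where 0.0284% and 0.0711% of all genes were called. An unadjusted p under 0.05 was found for 0 and 2 of the 7, and for 265 and 1306 of the 14062. After recovery 1 (CYP26A1, lower) was called, against 0.242% of all genes. With animal as a block 0 of 7 were called after 1 day, 1 (CYP26A1, lower) after 5 days and 4 (CYP26A1, CYP26B1, RARB and NRIP1, lower) after recovery, where 0.0782, 1.69 and 3.41% of all genes were called. After 1 day 0 of 7 had an unadjusted p under 0.05 in that fit too, against 634 of the 14062. Since these comparisons were in view when the genes were chosen, the counts are given as a description only.

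For the change of the smoke effect 0 of 7 were called over the first interval (1 day to 5 days) and 0 over the second (5 days to recovery), against 0.0142 and 0.348% of all genes. At an unadjusted p under 0.05 there were 1 and 3 of the 7, and 513 and 1608 of all 14062 genes. The block left both counts of genes called at 0, against 0.0427 and 3.56% of all genes. It gave 1 and 4 of the 7 an unadjusted p under 0.05, and 1311 and 2961 of all 14062. In air 2 of 7 were called higher at 5 days than at 1 day (CYP26A1 and DHRS3; 3.98% of all genes) and 4 of 7 higher after recovery than at 5 days (CYP26A1, CYP26B1, RARB and NRIP1; 11.3%). With the block these counts were 2 (19.4% of all genes) and 5, STRA6 being added (28.4%). Without a block the first of these counts was 0 without S3 or without S4 (0.433 and 0.072% of all genes) and 1 when the air library of S1 at 1 day was left out (0.748%). The second was 3 without the S1 air library of 5 days, CYP26B1 being lost (8.74%), and 1 without S2 or without S4 (4.07 and 2.19%). The median difference of the 7 after recovery was −1.26, and that of all 14062 genes was 0.00834.

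The number of recovery calls moved with the S1 air library of 5 days, which enters the spread shared by all groups. Leaving it out does not touch the recovery differences themselves. Without a block the standard error went from 0.37 to 0.16 for RARB, from 0.31 to 0.18 for NRIP1 and from 0.83 to 0.47 for CYP26B1, while that of CYP26A1, called either way, stayed at 0.32 and that of STRA6 went from 0.31 to 0.30. Then 4 of 7 were called without a block, against 2.51% of all genes, and 5 with it (CRABP2 being added), against 18.8%, so calls over all genes went up as well. Without a block the call of CYP26A1 was lost, leaving 0 of 7, when the recovery air library of S2, S3 or S4, the recovery smoke library of S3 or S4, or all libraries of S3 or of S4 were left out. In those fits 0 to 0.157% of all genes were called. Without S1 5 of 7 were called, against 3.58% of all genes. With the block 6 of 7 were called after recovery without S1, against 20.7% of all genes. Without S2, S3 or S4 it called 1 of 7, against 0.295, 0.238 and 0.158% of all genes.

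Other genes of the pathway were followed in lists by role, 79 symbols in all, of which 72 matched and 54 identifiers passed the filter. Without a block 0 of 54 were called by limma, the only tool run, for smoke against air after 1 day, 5 days or recovery. Of all genes 0.0284, 0.0711 and 0.242% were called. An unadjusted p of 0.05 was passed by 2, 5 and 6 of the 54, and by 265, 1306 and 1197 of all 14062 genes. The fit with animals blocked called 1, 4 and 5, or 1.85, 7.41 and 9.26% of the 54, where 0.0782, 1.69 and 3.41% of all genes were called. When the S1 air library of 5 days was left out of it the recovery count was 20 (37.0%), where 18.8% of all genes were called. With all libraries of S2, of S3 or of S4 left out, that count was 0, where 0.295, 0.238 and 0.158% of all genes were called. After recovery the list members called with the block were ALDH1A3, which makes retinoic acid and rose (0.89 ± 0.23, SE with the block, adjusted p = 0.037), and 4 that fell. Among these were CYP2S1, a P450 that can also metabolise retinoic acid (−0.89 ± 0.17, adjusted p = 0.0079), the squamous gene TGM1 (−0.84 ± 0.20, adjusted p = 0.022) and GPRC5A, a retinoic acid induced membrane protein (−0.42 ± 0.10, adjusted p = 0.024, in 1 of its 2 identifiers).

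ALDH1A3 went the opposite way from the hydroxylases in the recovery libraries. Its values were 5959, 7133, 3309.6 and 2917 in air against 9942, 14634, 6326 and 5233 in smoke, higher in smoke within each animal although the groups overlap. This was not particular to recovery. At 5 days ALDH1A3 stood at 3622, 6309, 1493 and 1975 in smoke against 1169, 3620, 1346 and 1516 in air from S1 to S4. It was above air within each animal at 1 day too, when CYP26A1 was also above air. The third CYP26 hydroxylase gene, CYP26C1, was below the filter, with no value above 3.21. Among the other receptors RARA was at −0.35 ± 0.15, RARG at −0.26 ± 0.15 and RXRA at −0.25 ± 0.08 (SE without a block). On the positive side were RXRB at 0.11 ± 0.14, NR2F6 at 0.16 ± 0.24 and PPARD at 0.01 ± 0.13. By limma 0 of the 7 other receptors tested were called after recovery in either fit, where 0.242 and 3.41% of all genes were called. An unadjusted p under 0.05 was found for 2 without and 3 with the block, and for 1197 and 2464 of all 14062 genes.

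At 5 days the block called RDH11, a retinal reductase, higher in smoke (0.42 ± 0.11, adjusted p = 0.049) and RARG lower (−0.33 ± 0.08, adjusted p = 0.039). It also called both identifiers of GPRC5A lower (−0.74 ± 0.10 and −0.68 ± 0.15, adjusted p = 0.00089 and 0.028), which may share reads. At 1 day it called MEIS1, a homeobox gene, lower (−0.61 ± 0.08, adjusted p = 0.0015). Without S3 the blocked counts at 5 days and at 1 day were 0, without S2 or S4 they were 1 and 0. Without S2, S3 and S4, 0.144, 0.0433 and 0.0648% of all genes were called at 5 days. At 1 day the shares were 0.0288, 0.0289 and 0.0216%. The median difference of the 54 was 0.03 after 1 day, −0.06 after 5 days and −0.04 after recovery, beside 0.00368, 0.0135 and 0.00834 for all genes. By role the recovery medians were 0.10 for the 4 carriers, 0.18 for the 14 enzymes of retinol, retinal and retinyl esters, −0.18 for the 7 receptors, −0.27 for the 9 coregulators, −0.03 for the 12 other induced genes and −0.46 for the 7 squamous genes, with CYP2S1 alone in the degradation list.

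The most abundant genes of each role showed smaller differences after recovery than CYP26A1, and limma called none of those that follow in either fit. FABP5, a carrier of fatty acids and retinoic acid, was at −0.09 ± 0.16 (SE without a block). ALDH1A1, which makes retinoic acid, was at 0.22 ± 0.36, and the retinol dehydrogenase DHRS9 at 0.07 ± 0.39. The nuclear receptors NR2F2 and PPARD were at −0.18 ± 0.20 and 0.01 ± 0.13, and the coregulators EP300 and NCOR1 at −0.45 ± 0.20 and −0.24 ± 0.10. TGM2, a transglutaminase that retinoic acid induces, was at −0.28 ± 0.37, and the squamous genes SCEL and KRT13 at −0.06 ± 0.40 and −0.54 ± 0.22.

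**Figure D4:**
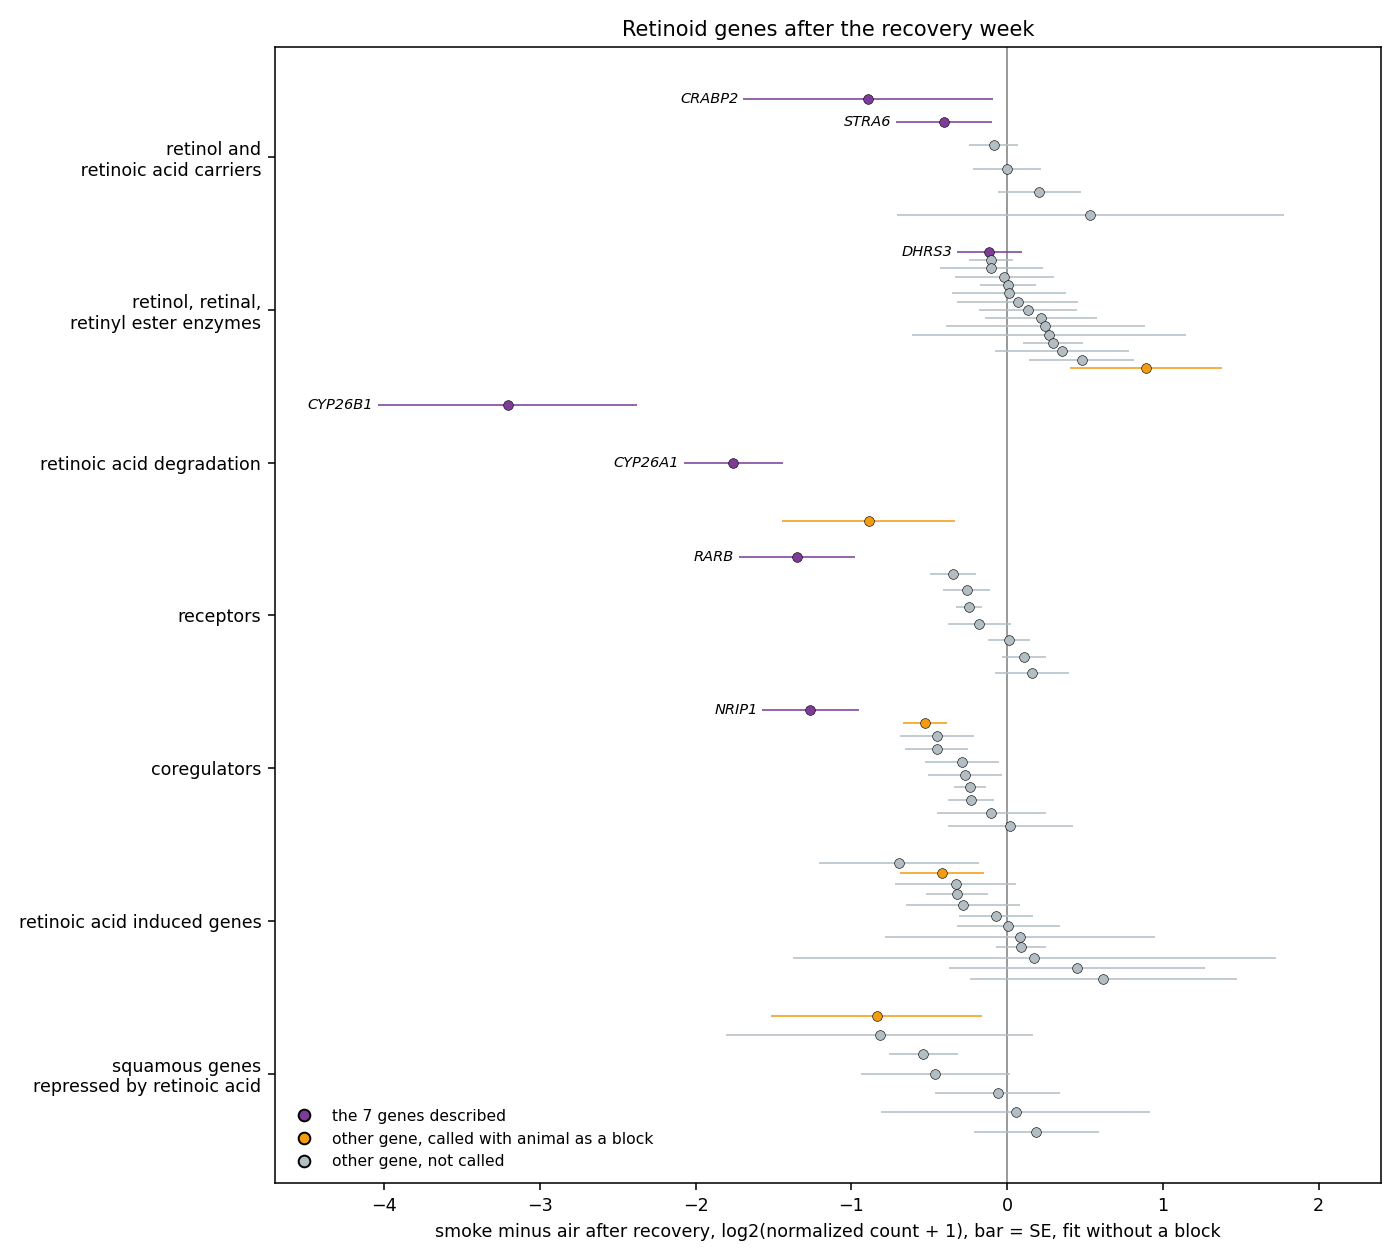
Smoke minus air after recovery for the 7 genes (purple) and the 54 other retinoid genes tested, by role, on the log2(normalized count + 1) scale with the SE of the fit without a block. The genes furthest to the left are CYP26B1, CYP26A1, RARB and NRIP1, and the 5 others called with animal as a block (orange) lie between −0.89 and 0.89.

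Markers of basal cells, the stem cell layer of this epithelium, were also lower in those libraries. The summed level of the 6 matched of 8 basal markers (KRT5, TP63, NGFR, ITGA6, ITGB4 and COL17A1) was 57480.2 to 68997 in air and 21764 to 41365 in smoke after recovery, with smoke at 0.617, 0.455, 0.513 and 0.332 times air in S1 to S4. Of these 6 markers limma called 2 lower without a block and 4 with it, where 0.242 and 3.41% of all genes were called, and the median difference was −1.02. At 5 days, where CYP26A1 already stood lower in smoke, the basal sums overlapped (33894 to 54904 in air, 33067 to 45413 in smoke) and limma called 0 of 6 in either fit. In air the same sum was 55574 to 71758 at 1 day, when CYP26A1 was at its lowest. Most of the sum was KRT5, and the markers did not move together. From 1 day to recovery the air means of KRT5 (49273 to 39039), ITGB4 (7437 to 6968) and TP63 (774 to 612) went down. Those of COL17A1 (5684 to 13857), ITGA6 (1717 to 2562) and NGFR (1238 to 1746) went up. From 5 days to recovery in air, where CYP26A1, CYP26B1, RARB and NRIP1 stood higher, limma called 4 of the 6 basal markers higher without a block and 5 with it (11.3 and 28.4% of all genes), with a median difference of 0.90.

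Ciliated markers overlapped after recovery (7593 to 17280.0 in air, 8601 to 24092 in smoke, 7 of 8 matched, with a median difference of 0.45 and 0 called by limma). Within the animals the ciliated sum was higher in smoke, at 1.49, 1.13, 1.39 and 1.19 times air in S1 to S4. Secretory and goblet markers ranged from 169.8 to 165323 over the libraries (6 of 7 matched, median difference 0.08 after recovery). The part of basal cell content in the recovery differences, and in those over time in air, was not tested. Depth was 12.0 to 13.4 M reads in air and 10.1 to 13.5 M in smoke after recovery, and 9.43 to 12.8 against 13.1 to 15.9 M at 5 days, and its part in the 5-day difference of CYP26A1 was not tested.

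Across the 24 libraries the 7 genes followed each other in part. Pearson's r of the log2 values, which share the animals, the times and the separate library, was 0.83 between RARB and NRIP1, 0.78 between CYP26B1 and RARB, 0.64 between CYP26A1 and CYP26B1 and 0.52 between CYP26A1 and RARB. Without the S1 air library of 5 days these were 0.72, 0.75, 0.74 and 0.79. Taken as deviations from the group means over all 24 libraries they were 0.76, 0.89, −0.24 and −0.02. These deviations include the separate library and are not given without it. Whether CYP26A1 followed CYP26B1 and RARB within groups is therefore not settled. DHRS3 was at 0.43 with CYP26A1 and −0.47 with NRIP1 (0.48 and −0.18 without that library). CRABP2 was between −0.36 and 0.06 with the others, and between −0.43 and 0.44 without it. CYP26A1 was tracked most closely, among 12453 genes with a symbol, by BCL10 (0.90), ANGPTL4 (0.90), FOS (0.88), ERRFI1 (0.88) and PTP4A1 (0.87). RARB was tracked by PIK3R1 (0.89), ZNF772 (0.88) and RAB3GAP1 (0.87), NRIP1 by JARID2 (0.94), MPRIP (0.92) and SMAD3 (0.91), and CYP26B1 by KDM5B (0.88), DNMBP (0.83) and EFR3B (0.82). The closest to STRA6 were RIMS3 (0.86), PCDHGB5 (0.86) and MAP1B (0.83), to CRABP2 SERPINF1 (0.89), ZNF750 (0.89) and LIMD2 (0.87), and to DHRS3 CNPY3 (0.89), UPF3B (0.86) and VPS25 (0.86). These values rank genes by likeness over shared samples and carry no test.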

How the data were processed

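Poly-A RNA of 24 cultures (6 groups, each with 1 library from each of 4 animals) was sequenced. FastQC, Trim Galore, Bowtie2 and RSEM are named in the submitters' processing notes; no version, genome build or strand setting was found in the labels. The deposited signal values were taken as read counts normalized between libraries by size factors, from the values: 0% of nonzero values were whole, library totals were alike, and 76.1 to 82.8% of low values per library (below 20 steps) were whole multiples of a library's smallest step, to within 0.1 step, too few to recover reads. Estimated depth was 9.43 to 17.4 M reads, and low values such as those of CYP26B1 are the least precise.

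From these values log2(value + 1) was computed, and limma 3.58.1 in R 4.3.3 was fitted with a trended variance to the 14062 of 35432 genes with at least 10 in at least 4 libraries. The model had 6 group means, all tests were two-sided, and p-values were adjusted by Benjamini-Hochberg over all genes. Standard errors are from that fit unless a block is named. Animal as an additive block was the alternative. The labels give the animal of each library, which pairs the samples. Deviations from the group means correlated at 0.303 to 0.804 between libraries of 1 animal (median 0.612, 60 pairs) and at −0.443 to 0.0149 between animals (180 pairs). No libraries were identical (0 pairs).

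The 7 genes, the retinoid lists and the marker lists were chosen with earlier results of these data known. Genes named from the lists were those called in any comparison without a block or with it, and the 2 of each list with the highest mean level; most like each gene were the 5 (CYP26A1) or 3 (others) with the highest Pearson r over 24 libraries. Other alternatives were scaling to library totals, no filter, a stricter filter, a pseudocount of 5, an adjusted p under 0.1, only the libraries compared, and leaving out each library or animal. Sequences and coordinates were not used here, and a few genes that the naming rule gives are not reported here. The fit was tested on simulated data.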

Additional observations from a re-analysis of the deposited data

Results flagged for a closer look

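In 7 of the 42 sets of 4 libraries (7 genes in 6 groups), 1 value lay so far from the rest that its gap passed Dixon's 95% critical value. Chance alone gives this in about 1 of 20 independent sets of normal values. The values here were not log-transformed and the sets share libraries and animals, so that rate need not hold. For CYP26A1 the value was the smoke culture of S2 after recovery, at 4055, and for CYP26B1 the smoke culture of S4 after 1 day, at 17.9. For NRIP1 it was the 5-day air culture of S1, at 320.3, and the recovery smoke culture of S1, at 1238. For STRA6 it was the smoke culture of S1 after 1 day, at 113. For CRABP2 it was the air cultures of S1 after 1 day and after 5 days, at 178 and 489.5. Of these 7 values, 5 belong to S1, and 2 of them to its separate 5-day air library.

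For 3 genes smoke lay above air in all 4 animals at 1 time and below it in all 4 at a later one. The effect on CYP26A1 differed by −1.36 between 1 day and 5 days, which limma called in neither the fit without a block nor the fit with one. Between 1 day and recovery it differed by −2.07 for CYP26A1, −1.46 for RARB and −1.40 for NRIP1, and these 3 differences were not tested.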

How the results depend on the processing

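All 7 genes kept the sign of their recovery difference in each of the 39 alternative settings, and CYP26A1 kept its sign in every comparison. Many of these settings could not alter a sign. The block, the filters, the threshold and leaving out a library of another time leave the recovery difference as it was. Its sign was open only under settings such as another scaling or pseudocount, or without a recovery library or an animal. The same limit holds for the signs of CYP26A1. At 5 days the sign of CYP26B1, RARB, NRIP1, STRA6 and CRABP2 turned in at least 1 setting. Counts of genes called depended more on the settings. With limma's threshold at an adjusted p of 0.1, the list genes called in air numbered 14 (5 days against 1 day, main count 6) and 12 (recovery against 5 days, main count 7). Of all genes 11.2 and 19.7% were then called, against 3.98 and 11.3% in the main fit. Without a filter the list counts in air were 1 and 3 (0.641 and 2.33% of all genes). After recovery 0 of the 7 genes were then called for smoke against air (0.0649% of all genes). With only the libraries compared, the list counts in air were 0 and 0 (0 and 0.114% of all genes). Those of the 7 genes were 0 (5 days against 1 day) and 1 (recovery against 5 days). These fits had fewer degrees of freedom and kept the S1 air library of 5 days, and the cause of the lower counts was not tested. Scaling to library totals shifted the median of all genes in air from 0.00230 to −0.144 (5 days against 1 day), and that of the change of effect from 1 day to 5 days from 0.00835 to 0.163. The list genes called higher and lower in air were then 1 and 7 (5 days against 1 day) and 3 and 2 (recovery against 5 days), where 6.33 and 10.6% of all genes were called.

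With the replicate block, which pairs the cultures of an animal, list genes called for smoke against air were 1 after 1 day, 4 after 5 days and 5 after recovery. Those for the change of effect were 1 and 2, and those in air 18 and 26. In that order 0.0782, 1.69, 3.41, 0.0427, 3.56, 19.4 and 28.4% of all genes were called. The 7 genes gave 1 after 5 days and 4 after recovery under that block. With the block and without the S1 air library of 5 days, the list counts were 2, 5 and 20 for smoke, 3 and 9 for the change and 18 and 19 in air. The 7 genes gave 2 after 5 days, 5 after recovery, and 1 and 4 for the change (6.33, 18.8, 0.307 and 11.3% of all genes). For smoke after 1 day and the 2 comparisons in air, 0.963, 18.7 and 27.1% of all genes were called. With the block and without S1, the list counts were 2, 4 and 19 for smoke, 2 and 11 for the change and 20 and 22 in air. The 7 genes gave 3 after 5 days, 6 after recovery, and 2 and 4 for the change (6.16, 20.7, 0.246 and 11.3% of all genes). For smoke after 1 day and in air the shares were 0.557, 19.2 and 27.0%. Blocked and without S2, S3 or S4, the list counts were 1, 0 and 1 after 5 days, 0 after 1 day, after recovery and for both changes, 9, 13 and 8 in air at 5 days and 16, 17 and 17 after recovery. Of all genes 0.144, 0.0433 and 0.0648% were called after 5 days and 0.295, 0.238 and 0.158% after recovery. In air the shares were 7.54, 8.51 and 5.65% at 5 days and 16.0, 19.2 and 15.4% after recovery. The 7 genes were then called in 1 case or fewer after 5 days (1 without S2, 0 without S3 or S4), in 1 after recovery each, and in 0 for the change. These counts were added after seeing the data where animals were left out.

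Leaving out 1 library or 1 animal in turn, without a block, gave 0 to 4 list genes after recovery, 0 to 1 for the change from 5 days to recovery, and 0 to 13 and 0 to 12 in air. For the 7 genes it gave 0 to 5 after recovery, 0 to 3 in air from 1 day to 5 days and 1 to 4 from 5 days to recovery. Over those fits 0 to 3.58% of all genes were called after recovery and 0.0072 to 1.21% for the change from 5 days to recovery. In air the shares were 0.072 to 10.5% and 2.19 to 17.6%, so calls over all genes moved as well. The causes of these moves were not tested unless stated. Depth was not recovered as whole reads, so no counting error could be attached to single values, and 4 animals limit what can be called.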

Other observations

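In the air cultures 4 of the 9 retinoid coregulators tested were called lower by limma at 5 days than at 1 day without a block (3.98% of all genes), and 3 of 9 without the S1 air library of 5 days (4.26%). Among them were the acetyltransferases EP300 (−0.74, adjusted p = 0.044) and CREBBP (−1.04, adjusted p = 0.021) and the coactivator NCOA1 (−0.54, adjusted p = 0.041). Without that library, which held the lowest EP300 value (683 against 1619 to 1755 in the other animals), they were at −0.42, −0.66 and −0.38, and NCOA1 was no longer called (adjusted p = 0.087). From 5 days to recovery 2 of 9 rose (11.3% of all genes), EP300 (0.88, adjusted p = 0.010) and NCOA3 (0.82, adjusted p = 0.031), which were at 0.56 and 0.42 without it and still called.

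Over the same times 1 of the 7 other receptors rose to 5 days (RXRB, 0.54, adjusted p = 0.033), against 3.98% of all genes. From 5 days to recovery 4 of 7 fell, against 11.3% of all genes: RXRB (−0.59, adjusted p = 0.012), RXRA (−0.35, adjusted p = 0.014), PPARD (−0.43, adjusted p = 0.045) and NR2F6 (−0.78, adjusted p = 0.038). Without the S1 air library of 5 days RXRB was at 0.32 and −0.37 and RXRA at −0.36, all still called. PPARD (−0.37, adjusted p = 0.10) and NR2F6 (−0.43, adjusted p = 0.091) were then not called. The squamous gene SCEL rose from 5 days to recovery (1.58, adjusted p = 0.016), by 0.99 without that library (adjusted p = 0.025), in which it stood at 333 against 1438 to 2319 in the other animals.

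At 1 day ALDH1A3 stood at 9419, 7646, 4196 and 3144 in smoke against 4095, 4155, 1769 and 1713 in air, higher in 4 of 4 animals. Limma called this difference (1.05, adjusted p = 0.00026) with a block and without the S1 air library of 5 days, and in neither of the other fits.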
